A study of Mus musculus with 30 samples.

Results

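Gene expression in villi of mice that had lost the retinoblastoma gene was set against that in crypts of normal mice. The 2 groups were the 5 arrays titled Rb KO villi and the 5 titled control crypts, 10 of the 30 arrays of the series. All came from mice 2 months old, and tissue was taken 5 days after the deletion. In the Rb KO mice, Rb1 was deleted by Ah-cre, a recombinase transgene whose promoter is induced by a drug-like compound and which is active in the intestine. The control mice are called only controls in the labels, which do not say whether they carried Cre or floxed alleles or were induced. Total RNA of each villus or crypt preparation was put on a mouse expression array. The 5 control villi arrays serve as the starting point of the mutant villi, so that for each gene the normal villus, the Rb-deficient villus and the normal crypt can be read side by side. The labels number the samples 1 to 5 within a group without saying that each came from its own mouse, so p-values measure the spread between these samples.

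The small intestinal epithelium is renewed from crypts, where stem cells and their transit-amplifying daughters divide. Cells that leave the crypt stop dividing and become absorptive or secretory cells of the villus. The retinoblastoma protein binds E2F transcription factors and holds them inactive until cyclin-dependent kinases phosphorylate it, and its loss in the intestine is known to send villus cells back into the cell cycle. In the crypt, Wnt signalling from Paneth cells and the surrounding stroma maintains the stem cells and Myc, and Myc in turn drives genes of ribosome production, translation and nucleotide synthesis. The comparison asks which of these crypt features are also present in villus cells that cycle without Rb.

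A pair of promoter sets is printed here because they belong to the genes on which the cell cycle results turn. E2F proteins bind the start regions of many genes of DNA replication. The genes of mitosis are known for a CHR element, which is bound by the MuvB complex, and for CCAAT boxes, which are bound by NF-Y. Each sequence is the 250 bases before the transcription start on the gene's own strand, from RefSeq on build GRCm38.p6, with the motifs in capitals. The 3 replication genes below were chosen because they hold an E2F motif, and their capitals mark TTTCCCGC, TTTGGCGC, TTTGCCGC or TTTCGCGC on either strand. Mcm6 and Mcm5 encode subunits of the replicative helicase, and Cdc6 encodes a loader of that helicase onto origins. The windows are chr1:128359706-128359955 on the minus strand for Mcm6, chr8:75109259-75109508 on the plus strand for Mcm5 and chr11:98907901-98908150 on the plus strand for Cdc6. The Mcm6 window held 3 matches, the Mcm5 window 2 that overlap, and the Cdc6 window 1. CHR elements and CCAAT boxes are not marked in these 3 windows, and those of Mcm6 and Mcm5 hold CCAAT boxes in lower case.
Mcm6: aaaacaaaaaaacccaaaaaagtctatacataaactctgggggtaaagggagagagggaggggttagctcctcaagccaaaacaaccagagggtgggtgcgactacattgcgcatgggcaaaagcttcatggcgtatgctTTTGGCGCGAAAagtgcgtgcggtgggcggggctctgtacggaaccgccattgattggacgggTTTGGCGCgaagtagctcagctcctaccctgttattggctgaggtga
Mcm5: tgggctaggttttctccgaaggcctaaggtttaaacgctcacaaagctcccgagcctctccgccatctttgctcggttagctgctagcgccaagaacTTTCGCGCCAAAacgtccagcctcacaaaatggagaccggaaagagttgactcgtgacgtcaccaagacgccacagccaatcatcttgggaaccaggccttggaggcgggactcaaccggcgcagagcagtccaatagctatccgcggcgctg
Cdc6: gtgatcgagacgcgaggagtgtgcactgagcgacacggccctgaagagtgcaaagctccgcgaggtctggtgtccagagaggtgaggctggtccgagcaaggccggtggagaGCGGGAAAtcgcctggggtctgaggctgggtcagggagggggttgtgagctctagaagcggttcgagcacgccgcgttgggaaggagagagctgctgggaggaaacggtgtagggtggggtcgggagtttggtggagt

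The 3 mitotic genes below were chosen because they hold both a CHR element, TTTGAA or TTCGAA, and CCAAT boxes, CCAAT, on either strand, and these are in capitals. Cdk1 encodes the kinase that starts mitosis, Ccnb2 one of its cyclins, and Top2a the topoisomerase that untangles sister chromatids. The windows are chr10:69352913-69353162 for Cdk1, chr9:70421555-70421804 for Ccnb2 and chr11:99024190-99024439 for Top2a, all on the minus strand. The Cdk1 window held 2 CHR and 3 CCAAT matches, that of Ccnb2 1 and 3, and that of Top2a 4 and 6. E2F motifs are not marked in these 3 windows, and that of Cdk1 also holds the E2F motif TTTCGCGC in lower case.
Cdk1: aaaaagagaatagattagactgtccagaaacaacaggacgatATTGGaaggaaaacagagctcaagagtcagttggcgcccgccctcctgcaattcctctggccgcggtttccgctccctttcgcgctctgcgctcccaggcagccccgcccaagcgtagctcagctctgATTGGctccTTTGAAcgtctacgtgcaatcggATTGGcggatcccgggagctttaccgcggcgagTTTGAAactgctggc
Ccnb2: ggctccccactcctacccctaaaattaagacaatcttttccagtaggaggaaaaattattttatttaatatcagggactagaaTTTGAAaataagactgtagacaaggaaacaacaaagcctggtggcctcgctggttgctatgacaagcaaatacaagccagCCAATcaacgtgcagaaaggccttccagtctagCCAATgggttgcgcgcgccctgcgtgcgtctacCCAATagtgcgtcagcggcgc
Top2a: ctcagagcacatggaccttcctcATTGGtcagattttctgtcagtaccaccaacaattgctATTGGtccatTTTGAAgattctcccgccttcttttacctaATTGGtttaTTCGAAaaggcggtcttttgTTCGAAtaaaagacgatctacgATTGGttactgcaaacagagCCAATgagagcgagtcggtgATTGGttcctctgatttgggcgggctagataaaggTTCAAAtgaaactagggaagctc

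Of 26 tested genes of origin licensing, 20 had promoters in the RefSeq table, and 10 of their 25 promoters (40%), counted over 300 bases from 250 before to 50 after the start, held an E2F motif. The share was 25.6% of 39 promoters for the replication fork genes and 31% of 29 for the G1/S regulators. Among all 32851 promoters of the table it was 2.26%, and among the 13106 promoters of the genes tested 3.75%. Of 59 promoters of G2/M genes, 8.47% held an E2F motif, 74.6% a CHR element and 72.9% a CCAAT box. For CHR and CCAAT the shares were 19.2% and 37.4% of all promoters, and 14.1% and 37.2% of those of genes tested. A CHR element was in 28% of licensing, 12.8% of fork and 31% of G1/S promoters. A CCAAT box was in 60%, 48.7% and 44.8% of them. The E-box CACGTG, the site that Myc binds with its partner Max, was in 27.1% of 70 promoters of ribosome biogenesis genes, 10.6% of 47 promoters of cytosolic ribosomal protein genes and 7.15% of all promoters. Among promoters of genes tested it was in 9.6%, which is close to the share of the ribosomal protein genes. These matches are letters in a window, not measured binding.

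Villus and crypt arrays were taken to have been normalized apart before deposit. The median of all probe sets was 6.28 to 6.34 on villus arrays and 6.67 to 6.73 on crypt arrays. Levels are therefore given in log2 units after quantile normalization, which gives the 10 arrays 1 common distribution, and the control villi were mapped to that distribution. A level is comparable between arrays for 1 gene, not between genes. The 18 probe sets for hybridization controls, which are added to every sample, differed by a median of 0.01 on the deposited scale and of 0.49 after quantile normalization, so small positive differences depend on the scale. The median difference of all genes was -0.49 on the deposited scale and -0.02 here, and differences below are best read against that. Tissue, genotype and separate processing cannot be told apart in this comparison. Fewer cells of a type and less RNA per cell cannot be told apart either, since whole tissue preparations were measured. The 3′ minus 5′ signal of the Gapdh control probe sets, a sign of RNA quality, was -0.09 to 0.01 in Rb KO villi, -0.21 to -0.11 in control villi and -0.30 to -0.24 in control crypts. The 3 groups did not overlap, so this sign moves with each comparison, and its part in the differences was not tested.

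Of 18194 genes with a probe set of their own, 12736 had a mean level above the 30th percentile and were tested. At an adjusted p of 0.05 (limma, Benjamini-Hochberg), 4315 genes (33.9%) were higher in Rb KO villi than in control crypts and 4810 (37.8%) were lower. A difference of at least 2-fold was found in 1066 higher genes (8.37%) and 1206 lower genes (9.47%). For 9334 genes (73.3%) the moderated 95% interval of the difference lay inside 2-fold in either direction. These genes are called within 2-fold below, and they can at the same time be called higher or lower by a small amount. Of the calls, 47.3% were higher, and on the deposited scale 16% were (1678 higher and 8833 lower). Against control villi, Rb KO villi had 1879 genes higher (14.8%) and 1956 lower (15.4%). Control crypts against control villi gave 4896 higher (38.4%) and 4760 lower (37.4%). The comparisons share arrays, so their values are set side by side and not related to each other.

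The preparations matched their labels by marker genes. Lgr5 of the stem cells and Mmp7 of the Paneth cells were higher in all 5 control crypts than in any villus array, and Lct and Apoa4 of the enterocytes were higher in every villus array than in any crypt array. Crypt markers were still measured in villi. Olfm4, a stem cell marker, lay between 8.91 and 11.90 in control villi and between 9.55 and 12.01 in Rb KO villi, against 13.50 to 13.93 in control crypts. In the other direction Lct lay between 10.11 and 12.41 in control crypts. Control crypts 1 stood apart in its pancreas genes, since the median level of 14 exocrine pancreas genes was 9.53 there and 6.83 to 7.75 in the other control crypts, and 6.90 to 7.19 in Rb KO villi.

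**Figure D1:**
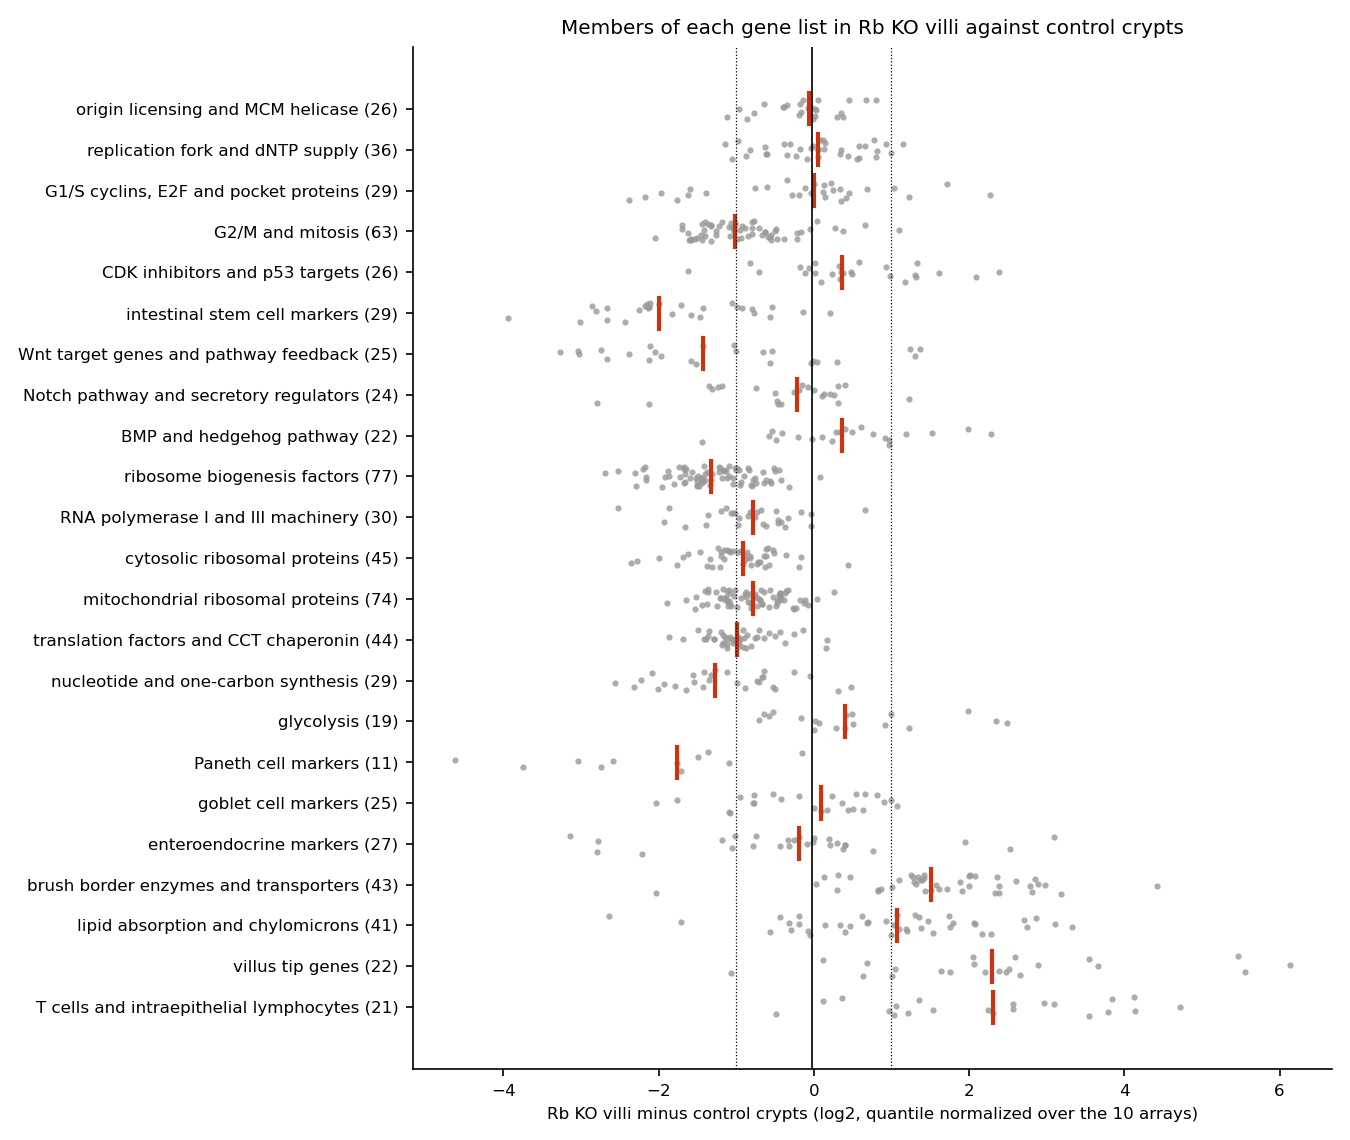
Difference between Rb KO villi and control crypts for each tested member (gray points) of 23 gene lists, on the log2 scale after quantile normalization, with the list median as a red bar, the median of all genes tested as a solid line and 2-fold as dotted lines. The number of members is in parentheses. Medians of the replication lists lay near that of all genes, those of mitosis, stem cell, Wnt target, ribosome and Paneth lists lay below it, and those of enterocyte and T cell lists lay above it. On the deposited scale all these medians lie lower, and those of the fork, G1/S, CDK inhibitor, BMP, glycolysis and goblet lists are negative.

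Rb1 itself was lowest in the deleted villi. Its level was 8.60, 8.49, 8.58, 8.55 and 8.51 in Rb KO villi 1 to 5, 9.03, 9.35, 10.22, 10.13 and 9.53 in control crypts, and 9.45, 9.64, 10.43, 10.21 and 10.19 in control villi. All 5 Rb KO arrays lay below every control array, and the control crypts spread more widely than the mutant villi. The difference from control crypts was -1.11 (SE 0.19, adjusted p = 2.4e-04). Whether the probe set lies in the deleted part of the gene is not stated in the sources used here.

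Myc was not at the crypt level in the cycling villi. It measured 7.62, 7.65, 7.19, 7.73 and 7.40 in Rb KO villi, 10.61, 10.15, 10.05, 10.41 and 10.10 in control crypts, and 7.70, 6.58, 7.04, 8.14 and 7.04 in control villi. The mutant villi fell within the range of the control villi and far below every crypt array. The difference was -2.75 from control crypts (SE 0.13, adjusted p = 8.5e-09) and 0.22 from control villi (adjusted p = 0.55).

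The genes that load and start the replicative helicase were close to their crypt levels. Of 26 tested, 6 were higher, 8 lower and 23 within 2-fold, against 33.9%, 37.8% and 73.3% of all genes, with a median difference of -0.06. The median level of the list was 8.66 to 9.05 on the Rb KO villi arrays, below every crypt array at 9.13 to 9.26. The median over control villi was 1.32 in Rb KO villi, where 23 were called higher (14.8% of all genes), and 1.64 in control crypts, where 24 were (38.4%). On the deposited scale 1 was higher and 21 lower. Mcm6 measured 11.70, 12.06, 11.91, 12.12 and 11.95 in Rb KO villi, 11.65, 11.25, 11.48, 11.53 and 11.52 in control crypts, and 7.70 to 9.14 in control villi. All mutant villi lay above all crypts, by 0.46 (SE 0.09, adjusted p = 7.7e-04), although the difference was 0.03 on the deposited scale and 1 of its 3 probe sets pointed the other way. With control villi in the same fit the adjusted p of Mcm6 was 0.063.

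Cdt1, which loads the helicase together with Cdc6, was higher by 0.80 (SE 0.13), and Cdc6 by 0.68 (SE 0.11). Mcm2, another helicase subunit, differed by -0.05 with an interval of -0.23 to 0.13, and was 2.07 above control villi, with 1 of 2 probe sets opposed. The members lowest against crypts were Dbf4, the activating partner of the Cdc7 kinase, at -1.11 (SE 0.15), and Gins2, a subunit of the active helicase, at -0.96 (SE 0.10). Both were nevertheless above control villi, by 1.55 and 1.05. Mcm5, whose promoter is printed above, was at -0.35 (adjusted p = 0.0021, and 0.17 with control villi in the same fit), with 1 of its 3 probe sets opposed.

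Genes of the replication fork and of deoxynucleotide supply were all called above control villi, 36 of 36 against 14.8% of all genes. Against crypts 13 were higher, 10 lower and 27 within 2-fold, with a median of 0.05. The higher and within 2-fold shares are near the 33.9% and 73.3% of all genes, so these counts do not set the list apart. On the deposited scale 5 were higher and 25 lower, with a median of -0.43. Rrm2, the small subunit of ribonucleotide reductase, measured 11.58, 11.24, 11.25, 11.51 and 11.46 in Rb KO villi, 10.17, 9.99, 10.23, 10.40 and 10.49 in control crypts, and 6.14 to 8.33 in control villi. The mutant villi were above the crypts without overlap, by 1.15 (SE 0.10, adjusted p = 9.2e-07).

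The fork checkpoint gene Clspn was higher by 0.99 (SE 0.10), the sliding clamp Pcna by 0.93 (SE 0.07) and the primase Prim1 by 0.78 (SE 0.10), all of them higher on the deposited scale too. Tyms, the thymidylate synthase, was within 2-fold at 0.08, with an interval of -0.15 to 0.32, and 2 of its 4 probe sets pointed the other way. The members furthest below crypts were Pold2 of DNA polymerase delta, at -1.14 (SE 0.12), Rnaseh2a, which removes RNA primers, at -1.06, and Dut, which clears dUTP, at -0.97. All 3 were called above control villi, by 1.5, 0.72 and 1.96.

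The G1/S regulators split into members above and members below the crypt level. Of 29 tested, 10 were higher and 11 lower, shares near those of all genes, and on the deposited scale 5 were higher and 22 lower. By at least 2-fold, 4 were higher and 7 lower, against 8.37% and 9.47% of all genes. Ccne2, a cyclin that activates Cdk2 at the entry to S phase, measured 10.43, 9.94, 10.11, 9.996 and 9.80 in Rb KO villi, 7.69, 7.70, 7.87, 7.91 and 7.74 in control crypts, and 5.78 to 6.98 in control villi. The 3 groups did not overlap, with the mutant villi highest and the normal villi lowest. The difference from control crypts was 2.27 (SE 0.11, adjusted p = 8.7e-09).

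Ccne1, the other cyclin E, measured 10.71, 10.52, 10.58, 10.48 and 10.39 in Rb KO villi and 9.43, 8.38, 8.67, 8.78 and 8.84 in control crypts, a difference of 1.72 (SE 0.15). Its crypt levels were not far from those of control villi, at 7.78 to 8.50. E2f7, a repressor among the E2F genes, was higher by 1.23 (SE 0.13), and Rbl1, which encodes the pocket protein p107, by 1.03 (SE 0.08), with 1 of 4 probe sets of Rbl1 pointing the other way. E2f1 was within 2-fold at 0.13 (interval -0.12 to 0.38) and -0.40 on the deposited scale, and 1.68 above control villi. E2f8 was at 0.00 (interval -0.39 to 0.39) and E2f2 at -0.03 (interval -0.38 to 0.32), with 1 of 2 probe sets of each opposed.

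Cyclins D1 and D2 and the kinases Cdk4 and Cdk6, which phosphorylate the retinoblastoma protein, were below the crypt level. Ccnd1 measured 7.86, 7.61, 7.76, 8.46 and 8.30 in Rb KO villi, 10.18, 9.87, 9.86, 9.75 and 10.20 in control crypts, and 7.52 to 8.65 in control villi. The mutant villi shared the range of the normal villi and lay below every crypt array, with a difference of -1.97 (SE 0.16, adjusted p = 3.6e-07). Ccnd2 was at -2.39 (SE 0.13), Cdk6 at -2.18 (SE 0.15) and Cdk4 at -1.62 (SE 0.11). Cdk4 was 0.85 above control villi (adjusted p = 0.015), while Ccnd2 and Cdk6 differed from them by -0.45 and -0.34. The third D-type cyclin, Ccnd3, was higher than in crypts by 0.36 but at -0.18 on the deposited scale. Cks1b, a subunit of the cyclin-dependent kinases, was at -1.77 and Ccna2, the S phase cyclin A, at -1.60, but both were above control villi, by 1.34 and 1.87.

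**Figure D2:**
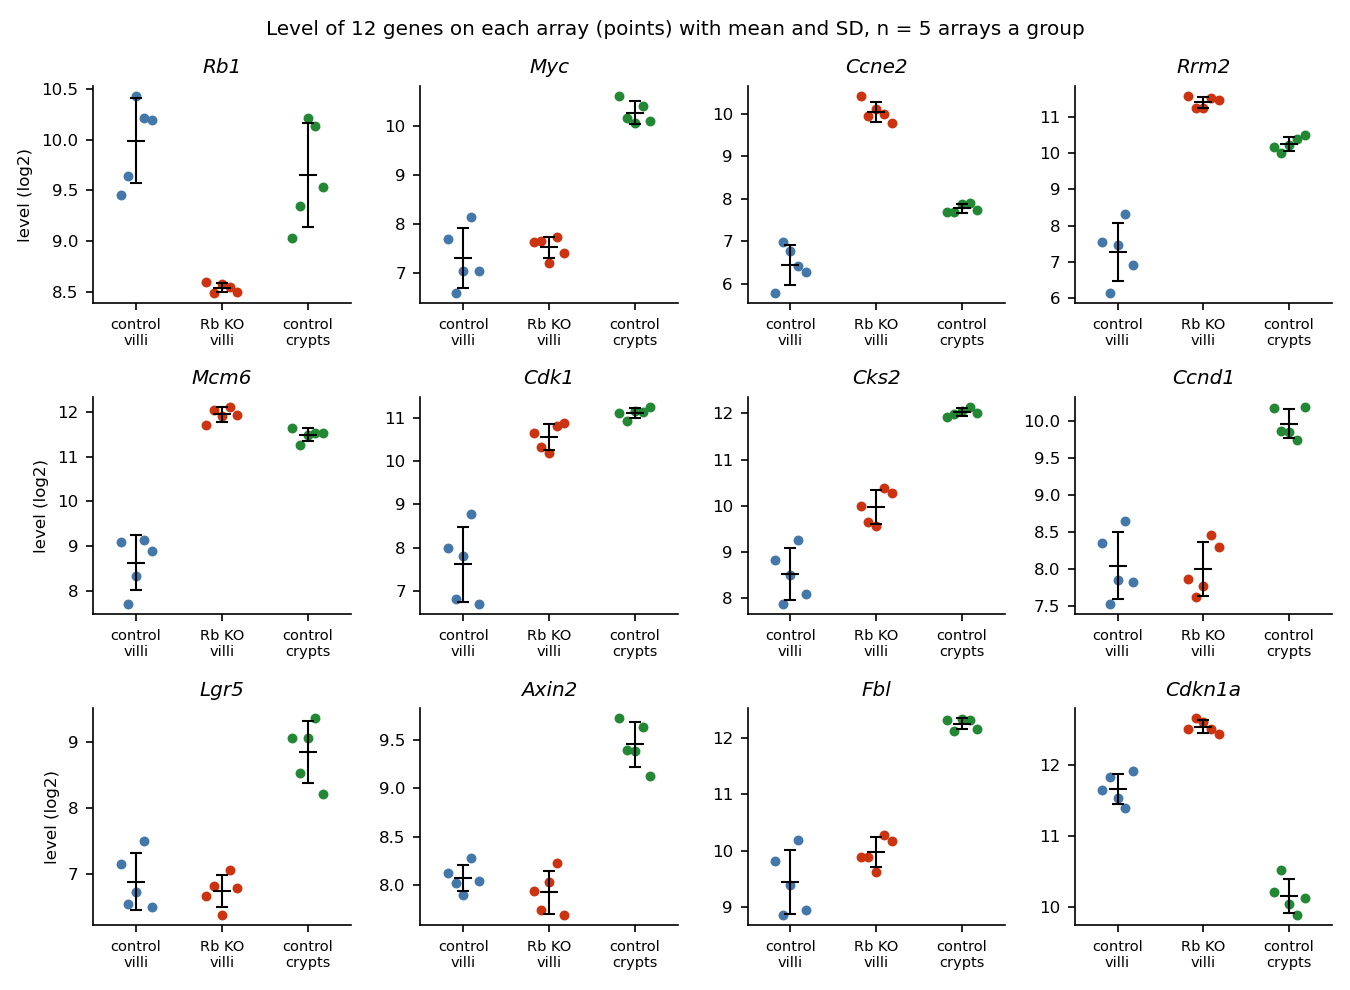
Level of 12 genes on each array (points, log2 after mapping to the distribution of the 10 arrays), with the mean and SD of the 5 arrays of control villi (blue), Rb KO villi (red) and control crypts (green). Ccne2, Rrm2, Mcm6 and Cdkn1a are highest in Rb KO villi, Cdk1 and Cks2 lie between normal villi and crypts, and Myc, Ccnd1, Lgr5, Axin2 and Fbl are near the normal villi. In the deposited values Mcm6 differs by 0.03 between Rb KO villi and crypts.

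Genes of G2 and mitosis were raised from the villus level but stayed below crypts. Of 63 tested, 55 were lower than in control crypts, 32 of them by at least 2-fold, against 37.8% and 9.47% of all genes. There were 4 higher (1 on the deposited scale) and 17 within 2-fold, against 33.9% and 73.3% of all genes. The list's median difference was -1.01 from control crypts and 1.63 from control villi. Of the 63, 59 were called above control villi, against 14.8% of all genes. Cdk1 measured 10.65, 10.31, 10.18, 10.80 and 10.87 in Rb KO villi, 11.10, 10.92, 11.16, 11.12 and 11.25 in control crypts, and 6.69 to 8.78 in control villi. Every mutant array lay below every crypt array by a small margin, and the difference was -0.55 (SE 0.13, adjusted p = 0.0022). With control villi in the same fit, the adjusted p of Cdk1 was 0.11.

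Plk1, a kinase that drives mitotic entry and spindle assembly, measured 8.69, 8.46, 8.50, 9.29 and 9.41 in Rb KO villi and 10.22, 10.07, 10.32, 10.21 and 10.33 in control crypts. Arrays 4 and 5 of the mutant villi were the highest of their group and still below all crypts, with a group difference of -1.36 (SE 0.18). The lowest members against crypts were Cks2, a partner of Cdk1, at -2.05 (SE 0.15), the kinesin Kif20a at -1.69 and the centrosomal kinase Nek2 at -1.69, with 1 of 4 probe sets of Nek2 opposed. Ccnb2 was at -1.59 (SE 0.17) and Top2a at -1.02 (SE 0.15), although 1 of 3 probe sets of Top2a pointed the other way. Ccnb1 has no probe set of its own here.

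The proliferation marker Mki67 differed by -0.22 with an interval of -0.52 to 0.08 and was 3.09 above control villi. Without Rb KO villi 4 and 5 the difference of Mki67 was -0.37 (adjusted p = 0.034). Those arrays had the highest mitotic medians of the mutant villi, so leaving them out lowers mitotic genes by the choice itself. This p-value therefore cannot be read as a test. The members above crypts were Ncapg2, a condensin subunit, by 1.10 (SE 0.11), Cdc25b, the phosphatase that activates Cdk1, by 0.66, and Kif15 and Ccnf by 0.37 and 0.28, which were at -0.03 and -0.27 on the deposited scale. The adjusted p of Ccnf was 0.052 without control crypts 2, and 1 of its 2 probe sets was opposed. The median level of the mitotic list was 8.95 and 8.99 in Rb KO villi 4 and 5 and 8.25 to 8.55 in the others, and the stem cell marker Smoc2 was also highest on those 2 arrays, at 8.87 and 8.45 against 7.30 to 7.69. The part of crypt cells in these mitotic levels was not tested. Without both arrays, a choice made after seeing the data that takes out the highest mitotic levels, 55 of the 63 members were called lower and 3 higher. On those arrays the stem cell list as a whole had medians of 7.55 and 7.42, against 7.26 to 7.42 on the other mutant arrays. Ribosome biogenesis factors had medians of 8.59 and 8.54 there, against 8.10 to 8.38. Cytosolic ribosomal proteins had 13.15 and 13.08, against 12.68 to 13.00, and Paneth cell genes 11.19 and 10.68, against 10.55 to 11.33.

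**Figure D3:**
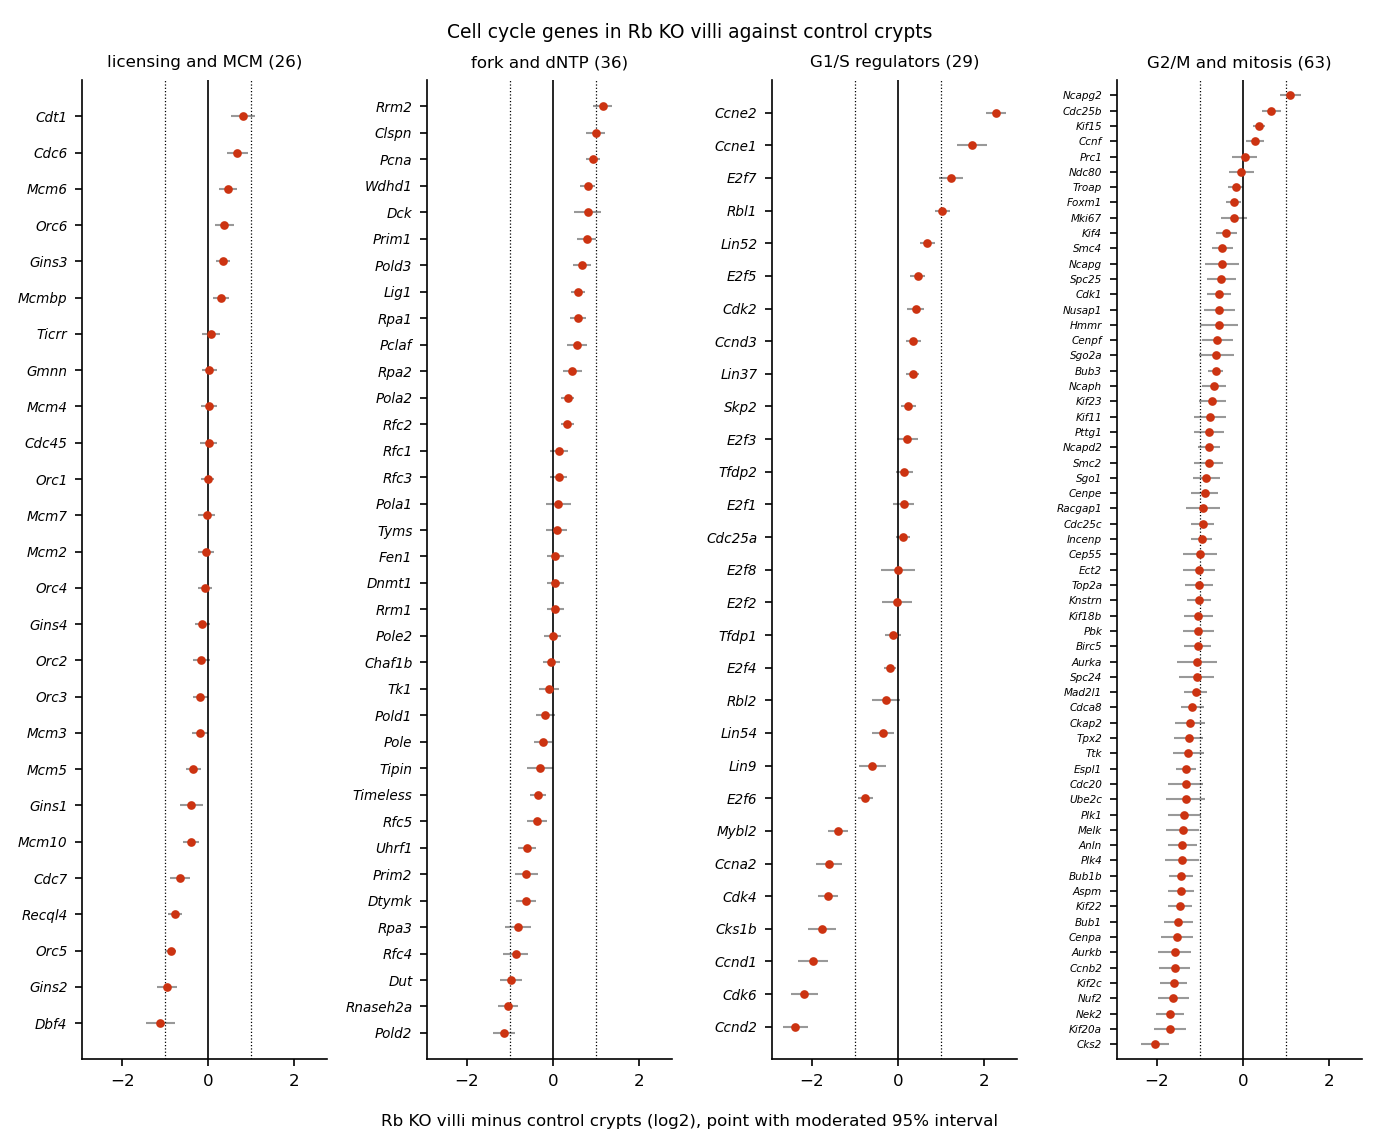
Difference between Rb KO villi and control crypts for each tested cell cycle gene (red point) with its moderated 95% interval (gray line), on the log2 scale, in 4 lists ordered by size, with 0 as a solid and 2-fold as dotted lines. Most replication genes lie inside the dotted lines, the G1/S regulators run from Ccne2 at 2.27 to Ccnd2 at -2.39, and most mitotic genes lie to the left of 0. On the deposited scale the median of all genes is -0.49, and small positive differences become negative.

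Inhibitors of cyclin-dependent kinases and targets of p53 were more often above than below crypts. Of 26 tested, 17 were higher and 4 lower, against 33.9% and 37.8% of all genes, with a median of 0.36. On the deposited scale 9 were higher and 9 lower, with a median of -0.10. The median against control villi was 0.03, with 6 higher and 4 lower (14.8% and 15.4% of all genes). In control crypts 6 were higher than in control villi and 16 lower (38.4% and 37.4% of all genes). Cdkn1a, the gene of p21, measured 12.50, 12.67, 12.60, 12.50 and 12.44 in Rb KO villi, 10.21, 10.52, 10.05, 9.88 and 10.12 in control crypts, and 11.65, 11.83, 11.53, 11.39 and 11.92 in control villi. The mutant villi were above both normal tissues without overlap, by 2.39 over crypts (SE 0.10, adjusted p = 5.8e-09) and by 0.88 over control villi (adjusted p = 8.3e-05).

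Cdkn2c, an E2F-regulated inhibitor of Cdk4 and Cdk6, was higher than in crypts by 0.48 but at -0.05 on the deposited scale, and 2.29 above control villi. Cdkn1b, the gene of p27, was lower by 0.83 on average, with 1 of its 2 probe sets opposed and control crypts 1 at 8.76, inside the mutant range of 8.76 to 9.27. The apoptosis genes Pmaip1 and Fas were higher by 2.08 and 1.61, close to control villi, from which they differed by 0.57 and -0.29. Aen, a p53 target, was lower by 1.61.

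Stem cell genes were not at crypt level in the cycling villi. Of 29 tested, 27 were lower, 21 of them by at least 2-fold, against 37.8% and 9.47% of all genes. The list median was -2.0, and the median against control villi was -0.05. Lgr5, the receptor for R-spondins that marks crypt base stem cells, measured 6.67, 6.82, 6.37, 7.05 and 6.78 in Rb KO villi, 9.07, 8.53, 9.06, 9.37 and 8.20 in control crypts, and 6.49 to 7.50 in control villi. The mutant villi lay inside the range of normal villi apart from 1 array just under it, and below all crypts, with a difference of -2.11 (SE 0.20, adjusted p = 1.3e-06).

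Ascl2, a transcription factor of the stem cells, was at -2.66 (SE 0.14) with 0.00 against control villi, and Smoc2 at -2.86 (SE 0.26). Olfm4 was at -2.66 (SE 0.33). The lowest members were the urea transporter Slc14a1 at -3.94 and the water channel Aqp4 at -3.01. Bmi1, a polycomb gene, was within 2-fold of crypts at -0.14 and 0.43 above control villi. The single member called higher was Msi1, by 0.21, with 2 of 3 probe sets opposed and -0.22 on the deposited scale. No member of the list was above crypts on that scale.

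Wnt target genes followed the stem cell list with a few exceptions. Of 25 tested, 18 were lower, 15 by at least 2-fold, and 4 were higher, against 37.8%, 9.47% and 33.9% of all genes. The list median was -1.43, and -0.03 against control villi. The list shares members with other lists here, among them Lgr5, Ascl2, Sox9, Ccnd1, Ccnd2, Myc and Mmp7. Axin2, the feedback inhibitor that reports Wnt activity, measured 7.94, 7.74, 8.04, 8.24 and 7.69 in Rb KO villi, 9.72, 9.40, 9.38, 9.63 and 9.13 in control crypts, and 7.90 to 8.28 in control villi. Every mutant array lay below every crypt array, at -1.52 (SE 0.13, adjusted p = 4.8e-07), and the group differed from control villi by -0.15 (adjusted p = 0.34).

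Ephb3, a receptor that positions crypt cells, was at -1.58 (SE 0.12), Cd44 at -2.04 (SE 0.16), the transcription factor Sox4 at -3.27 (SE 0.19) and the chloride cotransporter Slc12a2 at -3.02 (SE 0.26). Of these only Cd44 was called above control villi, by 0.70 (adjusted p = 0.033), and 1 of its 4 probe sets pointed the other way. Ephb2 has no probe set of its own. The members above crypts by over 2-fold were Plaur, the urokinase receptor, by 1.37, Notum, a secreted Wnt inhibitor, by 1.30, and the transcription factor Sp5, by 1.24. Those 3 were at the level of normal villi, from which they differed by 0.25, -0.07 and -0.15.

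Among Wnt ligands, receptors and transducers 5 of 29 were higher and 14 lower, against 33.9% and 37.8% of all genes. The list median was -0.14. Tcf7l2, the transcription factor that carries the Wnt signal in the intestine, was higher by 1.00 (SE 0.10), and Wls, which exports Wnt proteins, was lower by 1.71 (SE 0.10). Fzd5, a Wnt receptor, was lower by 0.34, with 1 of 2 probe sets opposed. Ctnnb1, the gene of beta-catenin, was higher by 0.36 but at -0.23 on the deposited scale, with 2 of 3 probe sets opposed. Wnt3 and Lrp5 were below the minimum level.

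The Notch list held 6 higher and 12 lower of 24, against 33.9% and 37.8% of all genes, with a median of -0.22. Notch1 was lower by 1.31 (SE 0.11) and its target Hes1 by 1.24 (SE 0.14), while the ligand Dll1 was higher by 0.21, which was -0.28 on the deposited scale. The adjusted p of Dll1, 0.046, rose to between 0.054 and 0.115 without any one of Rb KO villi 1, 2 or 3 or control crypts 2, 3 or 5. Atoh1, which commits cells to the secretory fate, differed by 0.00 (interval -0.22 to 0.22). Neurog3, which starts the enteroendocrine fate, was lower by 2.80 and Sox9 by 2.13, and against control villi they were at -0.02 (adjusted p = 0.95) and -0.09 (adjusted p = 0.70).

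Some signals of the upper crypt and villus lay above the crypt level. In the BMP and hedgehog list 13 of 22 were higher, 6 lower and 14 within 2-fold, against 33.9%, 37.8% and 73.3% of all genes. The list median was 0.37, and -0.11 on the deposited scale. Bmp2 was higher by 2.28 (SE 0.16), Bmp4 by 0.97 (SE 0.11), the hedgehog ligand Ihh by 0.92 (SE 0.10) and the BMP target Id1 by 0.61 (SE 0.07). Id1 was also above control villi, by 0.53 (adjusted p = 0.0013), where Bmp2, Bmp4 and Ihh differed by -0.25, 0.11 and -0.03. Ptch1, the hedgehog receptor, was lower by 1.45, with 1 of 3 probe sets opposed.

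In the EGF receptor list 7 of 16 were higher and 2 lower, against 33.9% and 37.8% of all genes. The list median was 0.30. In the deposited values 5 were higher and 8 lower, with a median of -0.17. Dusp6, the phosphatase induced by ERK, was higher by 3.56 (SE 0.29) and the ligand Hbegf by 2.38 (SE 0.25). Lrig1, a receptor antagonist that also marks stem cells, was lower by 1.83 (SE 0.13). Egfr itself was within 2-fold at 0.12 (adjusted p = 0.16, and 0.041 without Rb KO villi 4), at -0.43 on the deposited scale and with 3 of 7 probe sets opposed, and Erbb3 was higher by 0.66.

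In the Myc network, Mxd1, Mxi1 and Max were above and Myc below the crypt level. Of 15 tested, 5 were higher and 6 lower, shares near the 33.9% and 37.8% of all genes, with a median of -0.09. Mxd1, which competes with Myc for Max, measured 12.58, 12.77, 12.82, 11.995 and 12.18 in Rb KO villi, 9.37, 10.03, 9.41, 9.05 and 9.60 in control crypts, and 12.41 to 13.02 in control villi. The crypts lay below all villus arrays and the mutant villi overlapped the normal ones, with differences of 2.98 (SE 0.19, adjusted p = 6.9e-08) and -0.24 (adjusted p = 0.33).

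Mxi1, a second Max partner that opposes Myc, was higher than in crypts by 1.96 (SE 0.14) and Max by 1.58 (SE 0.18). Mycn was higher by 0.44, at -0.04 on the deposited scale and with 2 of 3 probe sets opposed. Mycl, another Myc gene, was lower than in crypts by 0.50 (SE 0.10) but above control villi by 0.89 (adjusted p = 2.9e-04).

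Factors of ribosome biogenesis were lower than in crypts almost throughout. Of 77 tested factors, 76 were lower, 53 by at least 2-fold, and 0 were higher, against 37.8%, 9.47% and 33.9% of all genes. The median was -1.33 against crypts and 0.24 against control villi. Against control villi 13 of the 77 were called higher, near the 14.8% share of all genes, and 0 were called lower, against 15.4%. Fbl, which methylates ribosomal RNA, measured 9.89, 9.88, 9.61, 10.28 and 10.18 in Rb KO villi, 12.32, 12.12, 12.34, 12.32 and 12.16 in control crypts, and 8.86 to 10.19 in control villi. The mutant villi overlapped the normal villi and lay below all crypts, at -2.28 (SE 0.12, adjusted p = 1.4e-08).

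The nucleolar proteins Ncl and Npm1 were at -1.80 (SE 0.12) and -1.87 (SE 0.11), and differed from control villi by 0.54 (adjusted p = 0.13) and 0.45 (adjusted p = 0.15). The lowest members were Nle1 at -2.69, Gar1 at -2.52 and the pseudouridine synthase Dkc1 at -2.31. Nop56, a core protein of small nucleolar particles, was lower by 1.64 but 1.11 above control villi (adjusted p = 0.0070). The member that was not called was Sdad1, at 0.07 with an interval of -0.16 to 0.31.

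The machinery of RNA polymerases I and III had 25 of 30 members lower and 1 higher, against 37.8% and 33.9% of all genes. The list median was -0.79. Polr1e was at -2.52, Polr3g at -1.93 and Polr1b, the second largest subunit of polymerase I, at -1.66 (SE 0.11). Ubtf, which binds the ribosomal DNA promoter, differed by -0.04 with an interval of -0.22 to 0.14.

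Of 82 cytosolic ribosomal protein entries, 27 had only probe sets shared with other genes, and 45 genes were tested. Of these, 43 were lower and 1 was higher, against 37.8% and 33.9% of all genes. The list median was -0.92, and 0.26 against control villi. Rplp0, an acidic stalk protein, measured 13.16, 13.24, 13.03, 13.47 and 13.48 in Rb KO villi, 14.62 to 14.66 in control crypts, and 12.48 to 13.89 in control villi. The crypt arrays lay within a very narrow band above all villi, with a difference of -1.37 (SE 0.09, adjusted p = 6.5e-08). Rps2 was at -0.90 and Rps6 at -2.35, with 1 of 2 Rps6 probe sets opposed. Rpl39 was the member called higher, by 0.44, and it was at -0.11 on the deposited scale. These genes lie near the top of the intensity range, where within-array ranks move little, and by ranks 26 of the 45 were called lower.

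Mitochondrial ribosomal proteins gave 68 of 74 lower, 1 higher and 36 within 2-fold, against 37.8%, 33.9% and 73.3% of all genes. Their median was -0.78. Translation factors and the CCT chaperonin gave 41 of 44 lower and 1 higher, against the same 37.8% and 33.9%, with a median of -0.99. Cct3, a chaperonin subunit, was at -1.36 (SE 0.08) and the helicase Eif4a1 at -0.74 (SE 0.09), and both were above control villi by a smaller amount, 0.45 and 0.47. Mrps27 was at -1.89 and Mrpl12 at -0.88.

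Genes of nucleotide and one-carbon synthesis were mostly lower. Of 29 tested, 26 were lower and 2 higher, against 37.8% and 33.9% of all genes, with a median of -1.27. Atic, of purine synthesis, was at -2.56 (SE 0.14) and Cad, which starts pyrimidine synthesis, at -1.27 (SE 0.11), and neither was called above control villi, at 0.36 (adjusted p = 0.27) and 0.22 (adjusted p = 0.23). Ctps, the CTP synthase, was closer to crypts at -0.53 and 1.58 above control villi. Mthfd2, of mitochondrial folate metabolism, was 1.55 above control villi and above crypts by 0.48, which was -0.05 on the deposited scale. Odc1, of polyamine synthesis, was at -0.64.

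Glycolysis genes were more often higher than lower, 10 and 4 of 19, against 33.9% and 37.8% of all genes. The list median was 0.40, and -0.20 on the deposited scale. Eno3, the muscle form of enolase, measured 10.98, 9.96, 10.44, 10.52 and 10.56 in Rb KO villi, 8.53, 7.92, 8.26, 7.84 and 7.47 in control crypts, and 7.49 to 8.76 in control villi. The mutant villi stood above both normal tissues, by 2.49 (SE 0.21, adjusted p = 4.2e-07) and 2.23 (adjusted p = 5.1e-05). Pkm was higher than in crypts by 0.92, at the level of control villi, and Hk2 was lower by 0.57. Ldha was higher by 0.42, at -0.13 on the deposited scale.

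**Figure D4:**
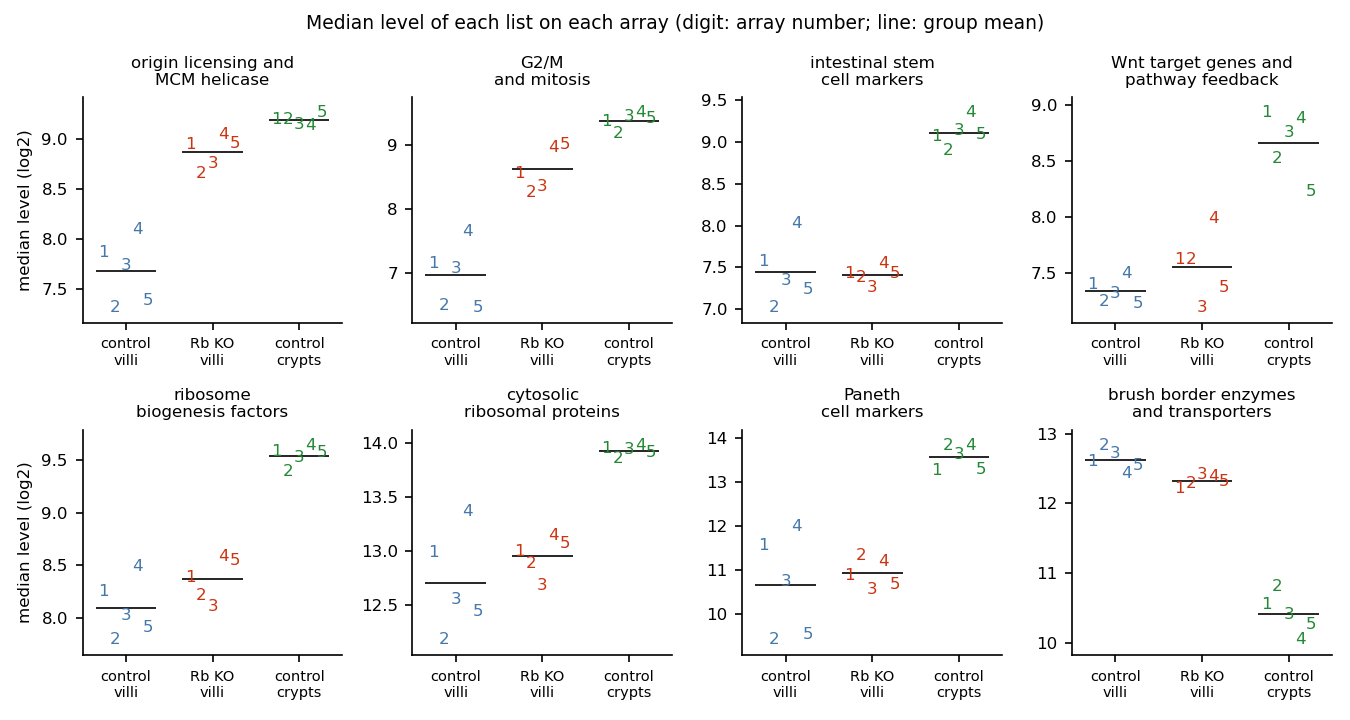
Median level of 8 gene lists on each of the 15 arrays (digits are the array numbers, colors the groups as labelled below, lines the group means), in log2 units after mapping to the distribution of the 10 arrays. Licensing genes in Rb KO villi, at 8.66 to 9.05, lie just below crypts at 9.13 to 9.26, without overlap. Mitotic genes lie between the normal tissues, and stem cell, Wnt target, ribosome and Paneth lists lie near control villi. Control villi 4 is the highest normal villus array for the first 7 lists, and array 4 is the highest Rb KO array for 5 of the 8 lists. On the deposited scale the licensing list lies further below crypts.

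Paneth cell genes were far lower than in crypts. Of 11 tested, 10 were lower, all by at least 2-fold, against 37.8% and 9.47% of all genes, with a median of -1.76. Lyz1, the lysozyme, was at -1.49 (SE 0.15), with 1 of 3 probe sets opposed, which gave 0.16 when probe sets that may match several genes were left out, Mmp7, which activates defensins, at -3.04 (SE 0.18) and the antimicrobial Ang4 at -3.74 (SE 0.28). Mptx1, the largest difference of the list, measured 9.13, 8.41, 8.21, 9.81 and 9.21 in Rb KO villi, 13.18 to 13.99 in control crypts and 8.97 to 12.43 in control villi, a difference of -4.62 (SE 0.27) from crypts. The probe sets of Defa24 are shared with other genes and were not used.

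Goblet cell genes went both ways, with 10 of 25 higher and 10 lower, shares close to those of all genes, and a median of 0.09 that was -0.34 on the deposited scale. The mucin Muc2 was higher by 0.91 (SE 0.15), Clca1 by 1.07 (SE 0.14) and Fcgbp by 0.81 (SE 0.08). Clca3a1 was lower by 2.03 and Spink4 by 1.76. Enteroendocrine genes gave 8 of 27 higher and 11 lower, also near the shares of all genes. Pyy, a peptide hormone, was higher by 3.10 (SE 0.14) and Gcg, the glucagon gene, lower by 3.13 (SE 0.36).

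Gcg was also lower than in control villi, by 1.77 (adjusted p = 5.4e-04). The granule proteins Chga and Chgb were lower than in crypts by 0.75 and 0.79, and Neurod1 differed by -0.01. Tuft cell genes gave 4 of 13 higher and 3 lower, against 33.9% and 37.8% of all genes. Dclk1 was lower by 0.87, with 1 of 9 probe sets opposed, Pou2f3 differed by -0.09, and Trpm5 was higher by 0.40, at -0.07 on the deposited scale and with 2 of 3 probe sets opposed. Without control crypts 1 the adjusted p of Trpm5 was 0.054.

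The cycling villi kept enterocyte genes above the crypt level. Of 43 brush border genes 39 were higher and 1 lower, with a median of 1.51. Of 41 genes of lipid absorption 28 were higher and 7 lower, with a median of 1.07. Among all genes 33.9% were higher and 37.8% lower. Lct, the lactase of the brush border, measured 14.20, 14.15, 14.30, 13.99 and 14.10 in Rb KO villi, 12.27, 12.41, 12.06, 10.11 and 10.87 in control crypts, and 14.07 to 14.36 in control villi. The mutant and normal villi overlapped and every crypt array was lower, by 2.60 on average (SE 0.37, adjusted p = 4.5e-05).

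Tmprss15, the enteropeptidase that activates trypsin, was higher by 4.42 (SE 0.14), the glucose transporter Slc5a1 by 1.42 (SE 0.14) and the phosphatase Alpi by 1.01 (SE 0.13). Tmprss15 was below control villi by 1.06 (adjusted p = 0.014). Cubn, the cobalamin receptor, was 2.34 above crypts and 2.30 below control villi (adjusted p = 0.0010 for the latter). Of the 43 brush border genes, 16 were lower than in control villi (15.4% of all genes) and 1 was higher, while in control crypts 42 were lower than in control villi (37.4% of all genes). Slc1a1, a glutamate transporter, was the member lower than in crypts, by 2.03.

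Among lipid genes Apoc3 was higher by 3.33 (SE 0.27), Apoa4 by 1.76 (SE 0.21), Apoa1 by 1.38 (SE 0.19), Fabp2 by 0.70 and Fabp1 by 0.62, and the desaturase Fads2 was lower by 2.64, with 1 of its 3 probe sets opposed. Of the 41 lipid genes, 14 were lower than in control villi and 1 was higher, against 15.4% and 14.8% of all genes. Of 22 villus tip genes 20 were higher than in crypts and 1 lower, against 33.9% and 37.8% of all genes. The villus tip median was 2.29. Ada, the adenosine deaminase, measured 14.33 to 14.71 in Rb KO villi and 8.19 to 8.75 in control crypts, 6.14 higher (SE 0.11). Nt5e, which makes adenosine from AMP, was higher by 2.59 (1 of 3 probe sets opposed) and the transcription factor Klf4 by 2.88.

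Among transcription factors of enterocyte identity 16 of 27 were higher and 8 lower, against 33.9% and 37.8% of all genes. The list median was 0.31. In the deposited values 5 were higher and 12 lower, with a median of -0.18. Hnf4a was within 2-fold at 0.22, with 2 of 4 probe sets opposed and -0.26 on the deposited scale. Cdx1, a homeobox factor of the crypt, was lower by 1.67 (SE 0.07), Ehf by 2.66 (SE 0.17) and Cdx2 by 0.49 (adjusted p = 0.023). The call of Cdx2 was lost without Rb KO villi 3 or control crypts 3 or 5, at adjusted p-values of 0.055 to 0.061.

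Among markers of other cells, those of T cells and fibroblasts were mostly higher than in crypts. Of 21 T cell and intraepithelial lymphocyte genes, 19 were higher in Rb KO villi than in control crypts, against 33.9% of all genes, with a median of 2.31, and 12 were lower than in control villi. Cd3e was higher by 1.53 (SE 0.07), Itgae by 2.97, Ptprc by 2.57 and the cytotoxic granzyme Gzmb by 4.72. Lymphocytes are a known part of the villus epithelium and can themselves divide. Their part in the cell cycle levels was not tested. The median level of the list was 8.98 to 9.56 in Rb KO villi, 9.40 to 9.81 in control villi and 6.80 to 6.93 in control crypts.

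Fibroblast and matrix genes were higher in 11 of 21 cases and lower in 1, with a median of 0.93. Col1a1 was higher by 1.37. Col3a1 was higher by 1.45 (adjusted p = 0.024), a call lost without Rb KO villi 1 or control crypts 1, 3 or 5, at adjusted p-values of 0.052 to 0.059. The list median was highest on Rb KO villi 3, at 8.82 against 7.08 to 8.01 on the other mutant arrays. The mast cell gene Mcpt1 was lower by 2.22, and by 1.90 without control crypts 2. It measured 8.41, 11.50, 10.69, 9.79 and 10.86 in control crypts, and the median of the mast cell list was 7.64 on control crypts 2 and 6.25 to 6.93 on the others. B cell genes gave 3 higher and 2 lower of 14, with Cd79a at -0.03 and Jchain at 1.49 (adjusted p = 0.081), or 2.04 without Rb KO villi 4 (adjusted p = 0.011) and 1.97 without control crypts 4 (adjusted p = 0.021). Macrophage genes gave 6 higher and 2 lower of 21, and their median level was 8.36 on Rb KO villi 3 against 7.09 to 7.32 on the other mutant arrays. Without that array the median difference minus that of all genes went from 0.28 to 0.01 for macrophage genes and from 0.95 to 0.57 for fibroblast genes. Smooth muscle genes gave 5 higher and 3 lower of 11, endothelial genes 6 and 2 of 12, genes of enteric neurons and glia 3 and 3 of 8, and exocrine pancreas genes 1 and 2 of 14. For B cell, macrophage and exocrine pancreas genes both shares lay below the 33.9% and 37.8% of all genes. For genes of enteric neurons and glia both shares were near those of all genes. The 1 red blood cell gene tested was lower.

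Immediate early, interferon-stimulated and clock genes were mostly above the crypt level. Immediate early genes were higher in 20 of 25 cases, against 33.9% of all genes, and lower in 3, with Fos higher by 3.66 and Atf3 by 2.73, and they differed from control villi by 0.28 and 0.22. Interferon-stimulated genes were higher in 21 of 27 cases and lower in 1, with Ifit1 higher by 3.74 and Irf7 by 3.10. The median of that list against control villi was -0.12, with 1 higher and 7 lower (14.8% and 15.4% of all genes). Of 23 genes of heat shock and endoplasmic reticulum stress, 7 were higher and 6 lower, shares below those of all genes, with a median of 0.06 that was -0.44 on the deposited scale. Clock genes were higher in 11 of 17 cases and lower in 1, and against control villi 2 were higher and 1 lower, with a median of -0.12. Dbp, a clock output, measured 9.35, 9.42, 10.32, 11.34 and 11.47 in Rb KO villi and 7.83 to 8.42 in control crypts, and Arntl, which runs opposite to Dbp through the day, was 7.55 and 7.38 on Rb KO villi 4 and 5, 8.86 to 9.34 on the other mutant arrays and 8.62 to 9.21 in control crypts. The labels used here give no time of day, and the mutant arrays differed among themselves in clock genes as they did in mitotic genes.

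Over all genes, among those whose groups did not overlap, the 10 highest were Clca4a at 7.12, Ada, Trim30d at 5.99, Ido1 at 5.87, Enpp3 at 5.56, Susd2 at 5.54, Pmp22 at 5.47, Slc5a12 at 4.97, Ly6m at 4.87 and Gzmb. The 10 lowest were Mptx1, Retnlb at -4.41, Slc14a1, Kcne3 at -3.91, Ang4, Prss23 at -3.55, Tmed6 at -3.54, Cdo1 at -3.48, Cnn3 at -3.42 and Sox4. Retnlb, a goblet cell cytokine, was uneven among the control crypts, at 5.67, 6.39, 13.42, 7.28 and 12.99, all above Rb KO villi at 4.58 to 4.83 (adjusted p = 0.012). Trim30d was uneven as well, at 9.89 in control crypts 1 and 4.36 to 5.01 in the others, against 11.52 to 11.81 in Rb KO villi and 7.77 to 11.75 in control villi.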

How the data were processed

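Mouse small intestinal villi and crypts were profiled on 30 arrays of 45101 probe sets, of which the 5 Rb KO villi, the 5 control crypts and the 5 control villi arrays were used. The deposited table holds log2 expression values between 2.64 and 15.21 made by the authors. How these were normalized and summarized is not given in the sources used here. Between 285 and 596 probe sets had exactly equal values in any pair of arrays from one tissue, against at most 1 in any pair across tissues, so villi and crypts were taken as normalized apart. The precision is limited by 5 arrays a group.

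The 10 arrays of the main comparison were quantile normalized, and control villi were mapped to the same distribution. Gene symbols came from the platform annotation, in which 34958 probe sets have 1 symbol, 932 several and 9211 none. Of the named ones, 34754 were found in a RefSeq gene table of GRCm38.p6, used to update names. Each gene was represented by the probe set of highest mean, and genes above the 30th percentile of the mean (6.02) were tested with limma 3.58.1 in R 4.3.3, two-sided, with Benjamini-Hochberg adjustment at 0.05. Groups of the same number were compared over their deviations from the group means. Rb KO villi and control crypts of the same number had correlations of -0.25 to 0.16 and were treated as unpaired, as were Rb KO and control villi. Control crypts and control villi had 0.34 to 0.59, each array fitting best with its own number, so they appear paired by number. All counts given for them, those of gene lists included, still come from the fit without the block and leave this pairing out. With the block 5026 genes were higher and 4914 lower. By Xist, control samples 1 and 4 and Rb KO sample 3 were female.

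The 3′ minus 5′ signal of the Gapdh control probe sets, a sign of RNA quality, was -0.05 ± 0.04 (SD, n = 5) in Rb KO villi and -0.27 ± 0.02 (SD, n = 5) in control crypts, a difference of 0.22 (exact permutation test, p = 0.00794, the smallest that 252 ways allow). For Actb the difference was -0.04 (exact permutation test, p = 0.254).

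The comparison, its 41 gene lists and the tests were chosen with earlier results of these data known. Named genes are Rb1, Myc, the 10 largest non-overlapping differences in each direction, the core genes of each list, up to 4 called members in each direction and up to 4 within 2-fold that were above control villi, of which the text takes fewer. Promoters of 300 bases were searched on both strands for exact letters. Alternatives covered scaling, probe sets, filters, the fit, the thresholds, sex, pairing and single arrays. The script was tested on simulated data. Figures were drawn with matplotlib 3.10.9.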

Additional observations from a re-analysis of the deposited data

Results flagged for a closer look

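In each group of 5 arrays, a value was singled out where the gap between the highest or lowest array and the next one exceeded 0.71 of the group's range. Of 368 groups of values, 184 genes in the 2 groups compared, 15 (4.08%) met this. Chance alone gives about 1 in 20.

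Of these 15 the widest gap was that of Trim30d, at 9.89 in control crypts 1 and 4.36 to 5.01 in the other crypt arrays. In control crypts 2, Prim1 was low at 10.14, Pold2 at 10.71, Nop56 at 10.70 and Rps6 at 10.17. In control crypts 4, Olfm4 was high at 13.93 and Ptch1 at 9.10. In control crypts 1, Rplp0 was low at 14.62 and Ly6m at 5.44, though within 0.04 and 0.18 of the other arrays. In Rb KO villi 2, Chga was high at 9.83, Hes1 low at 9.02 and Apoa1 low at 14.90. In Rb KO villi 4, Notch1 was high at 7.99 and Cdkn1b at 9.27, and in Rb KO villi 5 Ccnd3 was high at 9.60.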

How the results depend on the processing

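Leaving out each array in turn gave 4043 to 4281 genes higher and 4614 to 4798 lower, 1017 to 1117 and 1110 to 1294 of them by at least 2-fold, and 9131 to 9417 within 2-fold. With the replicate block, 4234 were higher and 4707 lower, and only the call of Dll1 changed among the 184 genes tested by name (0.21, adjusted p = 0.055). In the deposited values 1678 genes were higher and 8833 lower, 546 and 2881 by at least 2-fold. A test against 2-fold itself called 615 higher and 554 lower. Without a filter 14437 genes were within 2-fold, and 6031 were within 1.5-fold. List medians minus that of all genes moved as follows. With the mean of a gene's probe sets they were -0.14 for licensing, -1.39 for stem cells, -1.04 for ribosomal proteins and 2.05 for T cells. With the probe set of largest variance they were -0.22 for licensing, -0.039 for the fork, 0.53 for CDK inhibitors, -1.80 for Wnt targets, -1.46 for ribosome biogenesis, -1.20 for ribosomal proteins and 2.62 for T cells. With a filter at the 50th percentile they were 0.16 for G1/S, 0.53 for CDK inhibitors, -1.73 for Wnt targets, -2.13 for Paneth cells and 2.82 for T cells. Without probe sets that may match several genes they were -1.05 for ribosomal proteins and -2.15 for Paneth cells. Without Rb KO villi 4 and 5 together, chosen after seeing the data, they were 0.20 for G1/S and -1.23 for G2/M. These arrays had the highest G2/M medians of the mutant villi, so a lower G2/M value follows from the choice. On 1 strand only, motif shares were 1.2% for E2F, 11.6% for CHR and 21.1% for CCAAT over all promoters, 10.3% and 13.8% for E2F in fork and G1/S genes, and 55.9% for CHR and 47.5% for CCAAT in G2/M genes.

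The sign turned on the deposited scale for Ccnd3 (-0.18), Ccnf (-0.27), Cdkn2c (-0.046), Ctnnb1 (-0.23), Dll1 (-0.28), Hnf4a (-0.26), Kif15 (-0.032), Ldha (-0.13), Msi1 (-0.22), Mthfd2 (-0.054), Mycn (-0.045), Rpl39 (-0.11) and Trpm5 (-0.066). It turned with the mean of probe sets for Ccnd3 (-0.033), Ccnf (-0.26), Hnf4a (-0.25), Msi1 (-0.71), Mycn (-0.53) and Trpm5 (-0.076), with the probe set of largest variance for Ccnf (-0.80), Ctnnb1 (-0.11), Hnf4a (-0.87), Msi1 (-1.32) and Mycn (-1.30), and without probe sets that may match several genes for Lyz1 (0.16). The cause was not tested.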
